A study of Mus musculus with 2 samples.

Results

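Mature migratory dendritic cells (DCs) were described in 2 single-cell RNA libraries of leukocytes from mouse mammary tumors. A cell was counted as a member when it had at least 3 UMIs of Fscn1, at least 3 UMIs of Ccl22 and Ccr7 together, at most 1 UMI of Cd3d, Cd3e and Cd3g, and fewer than 30 UMIs of C1qa, C1qb and C1qc. A UMI is a molecular tag that counts 1 captured RNA molecule. The rule was applied to barcodes with 500 to 7500 detected genes and at most 15% mitochondrial UMIs. It found 87 cells among 6363, with 38 of 3565 in the Pgd fl/fl library and 49 of 2798 in the Pgd fl/fl LysMCre library. The members were thus chosen by the measured UMIs of these genes, whose levels are given as a description only.

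Both libraries came from female mice aged 6 to 12 weeks with AT3 tumors, grown for 30 days from 500000 cells of a mouse mammary tumor line placed in the mammary fat pad. Both genotypes carried floxed alleles of Pgd, which encodes 6-phosphogluconate dehydrogenase, an enzyme of the oxidative pentose phosphate pathway. The Pgd fl/fl mice, labelled WT, had no Cre. The Pgd fl/fl LysMCre mice, labelled 6PGDKO, had Cre in the Lyz2 gene, which macrophages, monocytes and neutrophils express. The paper states that some DCs express it as well. Mice with Cre but without floxed alleles were not analysed here. Tumors of 10 mice were pooled per genotype, and leukocytes were sorted as CD45+, although the labels name CD11b+ cells in another sentence. With 1 library per genotype no test between genotypes was possible, and genotype and pool cannot be told apart. All intervals are 95% intervals that cover counting error only. In each pair of values below, Pgd fl/fl comes first.

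DCs take up antigen in tissues and present it to T cells. On maturation they bundle actin with fascin, gain the lymph node homing receptor Ccr7, and display peptides on MHC molecules beside costimulatory ligands. Mature DCs of tumors are known to carry inhibitory ligands for T cells as well. Conventional DCs that have not matured are commonly split into cDC1, marked by Xcr1 and Clec9a, and cDC2, many of which carry Cd209a. For comparison, Xcr1/Clec9a DCs (27 and 40 cells, at least 2 UMIs of both genes together) and Cd209a DCs (6 and 24 cells, at least 2 UMIs of Cd209a) were selected under the same limits on Cd3 and C1q UMIs, with at most 1 UMI of Fscn1. Cd209a DCs are named by their marker and were not shown to be cDC2, since monocyte markers were high in them (values below).

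The members held 467826 and 593876 UMIs in all. A member had from 3047 to 24539 UMIs with a median of 12102 in Pgd fl/fl, and from 2590 to 21125 with a median of 11804 in Pgd fl/fl LysMCre, so depth was alike in both libraries. No barcode occurred in both libraries. Few cells lay near the edge of the rule: 1 and 4 members had 3 to 5 Fscn1 UMIs, and 1 and 2 cells just outside had 2. Markers of other cells were low in the members. The macrophage list without C1q (11 genes, 3 and 1 of them at 0) summed to 214 and 258 CPM (UMIs of a gene per 1000000 UMIs), against 26763 and 21434 CPM in macrophages. The T cell list without Cd3 (9 genes, 2 and 3 of them at 0) summed to 291 and 387 CPM, most of it Il7r (274 and 359 CPM), against 4163 and 3947 CPM in T cells. The B cell list (9 genes, 5 and 4 of them at 0) summed to 55.6 and 55.6 CPM, against 12988 and 8433 CPM in B cells. Keratins and other epithelial genes (8 genes, 4 and 4 of them at 0) summed to 162 and 119.6 CPM, most of it Epcam (128 and 104 CPM), which Langerhans cells also express.

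The limits on Cd3 and C1q UMIs left out 20 and 38 cells that otherwise met the rule. Of these, 18 and 37 had at least 2 Cd3 UMIs. They had a median of 16631 and 20975 UMIs, against 12102 and 11804 in members and 5024 and 5709 in T cells, and a median of 25 and 24 Cd3 UMIs, against 12 and 14 in T cells. Their Fscn1 level was 1010.0 and 1005 CPM, their Ccr7 level 1556 and 1589 CPM and their Cacnb3 level 365 and 275 CPM, all below the members. No doublet caller was run, and whether these barcodes hold more than 1 cell was not tested.

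The 3 given markers that the rule did not use were all high in the members. They were given with the label, and the other DC groups were limited in Fscn1. Their levels are thus a description and not a check of the label. Il12b (chr11:44400063-44414677), the p40 subunit of IL-12 and IL-23, stood at 827 and 721 CPM in members, against 7.55 and 6.28 CPM in Xcr1/Clec9a DCs, 0 in both libraries in Cd209a DCs and 0.308 and 3.64 CPM in T cells. Cacnb3 (chr15:98628436-98644536), a calcium channel beta subunit, had 259 and 288 UMIs (554 and 485 CPM) and was found in 37 of 38 and 48 of 49 members. In single members it ran from 0 to 14 UMIs with a median of 6.5, and from 0 to 13 UMIs with a median of 5. In the other DC groups it stood at 0 and 1.57 CPM (Xcr1/Clec9a) and 0 and 0 CPM (Cd209a). Il4i1 (chr7:44836288-44840809), a secreted amino acid oxidase that restrains T cells, stood at 419 and 483 CPM, against 0 and 9.43 CPM in Xcr1/Clec9a DCs and 33.5 and 141 CPM in Cd209a DCs. Positions are those of RefSeq on GRCm38.p6, the assembly behind the mm10 build of the submitters' notes.

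The genes of the rule were high by choice. Fscn1 (chr5:142960355-142973189), which encodes fascin, ran in single members from 4 to 79 UMIs with a median of 26, and from 4 to 71 UMIs with a median of 19. Its summed level was 2529 and 1808 CPM. Ccr7 (chr11:99144199-99155077) ran from 2 to 119 UMIs with a median of 26, and from 1 to 121 UMIs with a median of 26, with 2736 and 2929.9 CPM in sum. Ccl22 (chr8:94745684-94751388), a chemokine that attracts T cells with Ccr4, stood at 953 and 2125 CPM. Of the genes that mark conventional DCs in general, the transcription factor Zbtb46 stood at 51.3 and 50.5 CPM against 27.7 and 25.1 CPM in Xcr1/Clec9a DCs, and the cytokine receptor Flt3 at 135 and 131 CPM against 153 and 134 CPM. Batf3 (257 and 254 CPM) and Irf8 (1353 and 1187 CPM), factors of cDC1 development, were present, while Xcr1 and Cd209a themselves had 0 UMIs in the members of both libraries. Of the cDC1 list, 0 of 12 genes were at least 2-fold higher than in both other DC groups and 3 were lower. Its median log2 ratio was -3.86 and -4.95 over Xcr1/Clec9a DCs, which were chosen by Xcr1 and Clec9a. Of the DC identity list, 0 of 13 were higher and 3 lower, beside 3.52% and 3.95% of all genes.

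**Figure D1:**
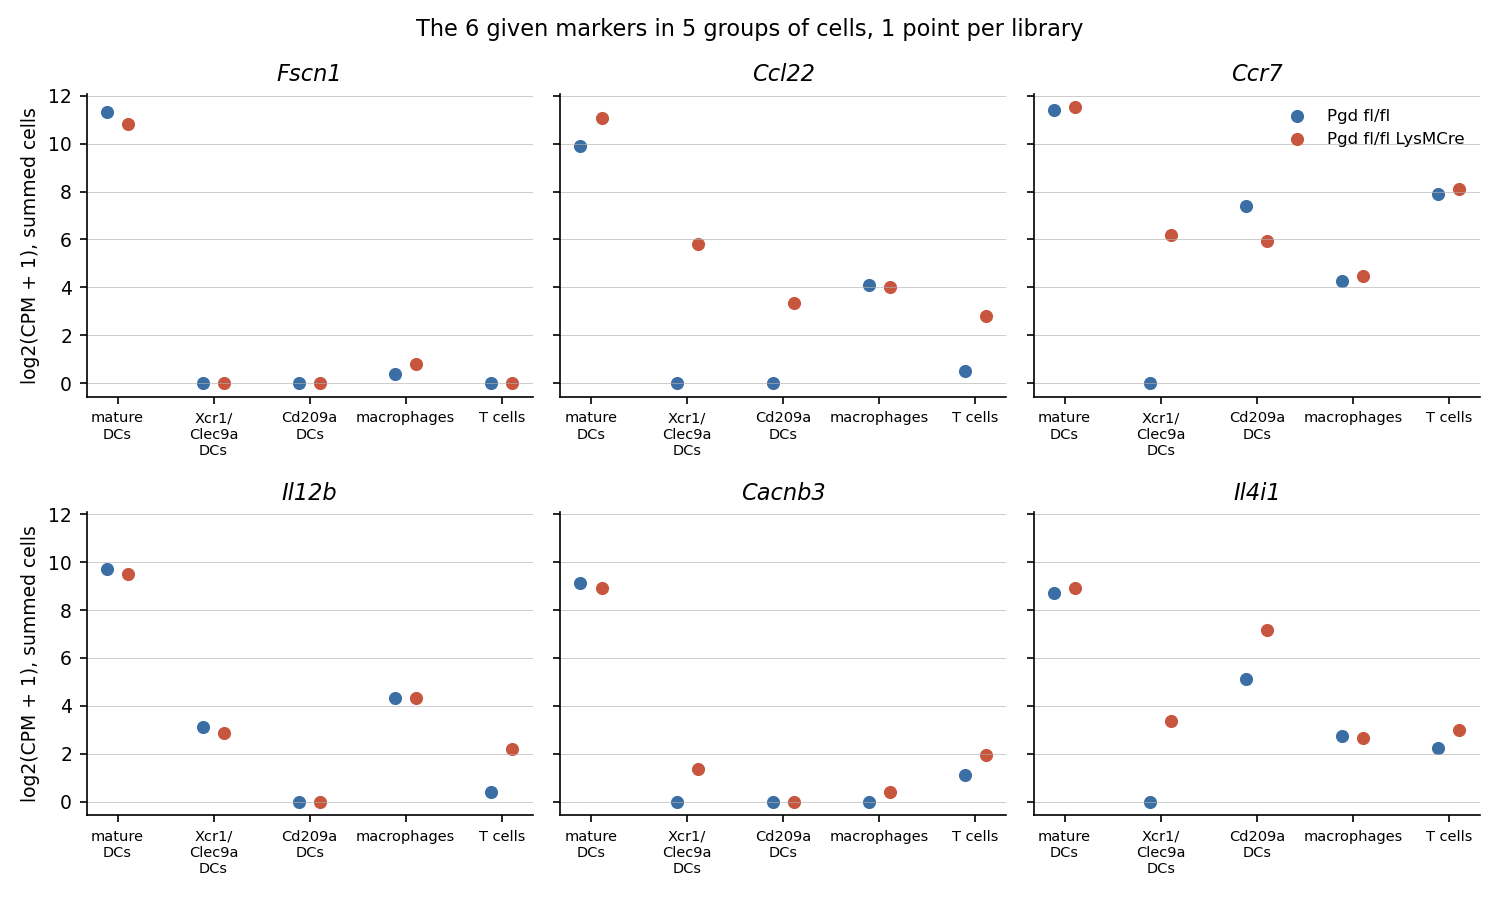
Level of the 6 given markers as log2(CPM + 1) of summed UMIs, 1 point per library, in mature DCs, Xcr1/Clec9a DCs, Cd209a DCs, macrophages and T cells. Il12b, Cacnb3 and Il4i1, which did not choose the cells, are highest in mature DCs in both libraries (Il12b 827 and 721 CPM), while Fscn1, Ccl22 and Ccr7 were part of the rule and Fscn1 was limited in the other groups.

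Compared with the other DCs, the members held more transcript of many maturation and migration genes and less of some class II loading genes. Of 7266 genes with at least 20 UMIs over the 3 groups, 256 (3.52%) were at least 2-fold higher in mature DCs than in both other groups in both libraries, and 287 (3.95%) at least 2-fold lower. The rule used this contrast, so these counts are a description. The Pgd fl/fl Cd209a group had only 6 cells and 59671 UMIs. In Cd209a DCs the monocyte list summed to 7474 and 6912 CPM, against 558 and 781 CPM in Xcr1/Clec9a DCs. Their DC identity list summed to 3637 and 5290 CPM, against 30344 and 26634 CPM. Sums of this list can rest on 1 gene, as Cst3 gave 11957 of 13678 and 15729 of 17631 UMIs in mature DCs. By gene, its median log2 ratio of mature DCs over Cd209a DCs was 0.006 and 0.011, so the typical gene was level. The monocyte gene Plac8 stood at 2547 and 1896 CPM in Cd209a DCs, against 282 and 440 CPM in Xcr1/Clec9a DCs. The contrast with both groups may thus be partly one with monocyte-like cells, which was not tested. Against Xcr1/Clec9a DCs alone, a comparison added after seeing the data, 789 genes were higher and 963 lower. Of 11 tested chemokine genes, 2 were higher and 0 lower, and their median log2 ratio ran from -1.87 (over Cd209a DCs of Pgd fl/fl LysMCre) to 0.95 (over Xcr1/Clec9a DCs of that library).

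By the ratio nearest to 0, the gene farthest above both groups was Ccl5 (chr11:83525778-83530518), a chemokine that attracts T cells. It had 2092 and 1344 UMIs in members (4472 and 2263 CPM), against 25.2 and 45.6 CPM in Xcr1/Clec9a DCs and 16.8 and 50.1 CPM in Cd209a DCs. T cells also express Ccl5, and the T cell receptor gene Trac stood at 4.28 and 6.74 CPM in members. Mfge8, a secreted protein that bridges phagocytes to dying cells, stood at 849 and 1667 CPM, against 2.52 and 7.85 CPM and 33.5 and 41.0 CPM in the same groups. Fabp5, a fatty acid-binding protein, stood at 3789.9 and 6412 CPM, against 35.2 and 44.0 CPM and 235 and 506 CPM. All 3 lay above both groups in both libraries.

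The 15 highest also held Anxa3, an annexin (519 and 414 CPM), the endosomal tetraspanin Cd63 (1507 and 1436 CPM), Tmem123 (1528 and 1660.3 CPM), the small GTPase Rap2b (485 and 441 CPM) and H2-M2, a nonclassical class I gene (560.0 and 502 CPM). Also among them were glycogenin, Gyg (714 and 593 CPM), the apoptosis inhibitor Birc2 (289 and 288 CPM), the metalloprotease Mmp25 (498 and 502 CPM), Serpinb9, an inhibitor of granzyme B (543 and 596 CPM), and Gm13546 (162 and 131 CPM). Il12b and Cacnb3 complete the 15 highest. Reads of H2-M2 may not be fully separable from those of related class I genes. For Anxa3, Il12b, Cd63, H2-M2, Cacnb3, Mmp25, Serpinb9 and Gm13546, at least 1 comparison group had 0 UMIs, and the fold there was taken against 3 UMIs as a lower bound.

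**Figure D2:**
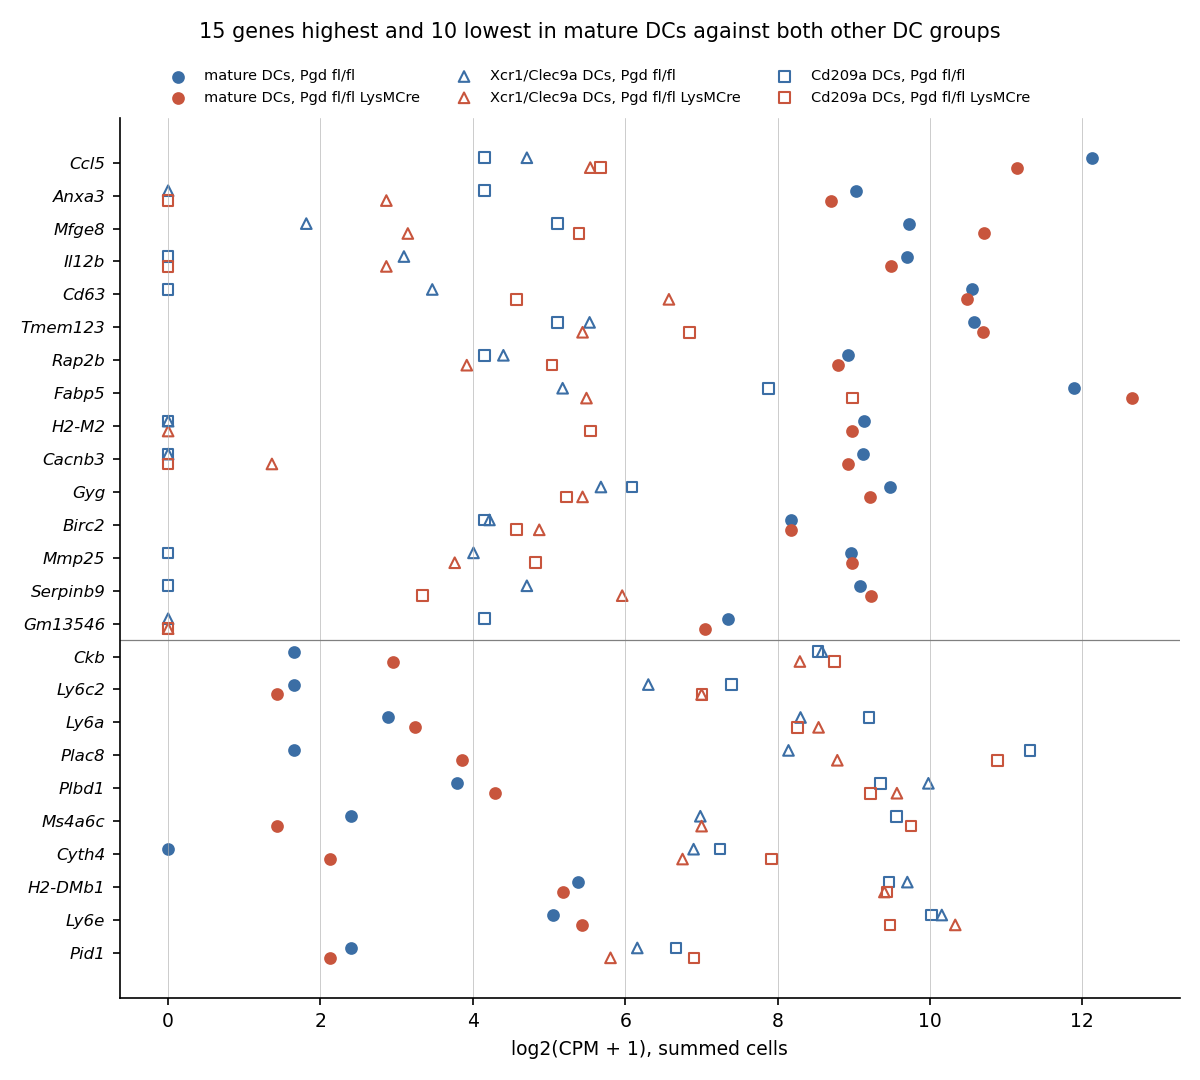
The 15 genes highest and the 10 lowest in mature DCs against both other DC groups, as log2(CPM + 1) of summed UMIs, with filled symbols for mature DCs and open symbols for Xcr1/Clec9a DCs and Cd209a DCs of each library. In each line the filled symbols lie apart from the open ones, as the choice of genes requires, for example Ccl5 at 4472 and 2263 CPM in mature DCs.

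At the other end stood creatine kinase, Ckb, with 1 and 4 UMIs in members (2.14 and 6.74 CPM) against 382 and 313 CPM in Xcr1/Clec9a DCs. The 10 lowest also held Ly6c2 at 2.14 and 1.68 CPM against 78.0 and 127 CPM, Ly6a at 6.41 and 8.42 CPM against 314 and 371 CPM, and Ly6e at 32.1 and 42.1 CPM against 1139 and 1288 CPM. H2-DMb1, a chain of the DM molecule that loads peptide onto class II, stood at 40.6 and 35.4 CPM against 833 and 675 CPM. Plac8, Plbd1, Ms4a6c, Cyth4 and Pid1 complete the 10 lowest.

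The DC maturation list was mostly higher, with 21 of 24 tested genes higher and 0 lower, beside 3.52% of all genes higher. It was drawn from what such cells are known to express, so its direction is not independent evidence. Samsn1, an adaptor protein, stood at 1541 and 1546 CPM against 25.2 and 66.0 CPM in Xcr1/Clec9a DCs, Tbc1d4, a regulator of vesicle traffic, at 1892 and 1965 CPM against 252 and 210.5 CPM, and Socs2, a suppressor of cytokine signalling, at 355 and 237 CPM against 2.52 and 1.57 CPM. Nudt17 (197 and 163 CPM) had 0 UMIs in both other groups. Of the migration and cytoskeleton genes, 9 of 17 were higher and 0 lower, beside 3.52% and 3.95% of all genes. They included the GTPase Rhoc (229 and 165 CPM against 7.55 and 20.4 CPM), the myosin Myo1g (429.6 and 546 CPM against 62.9 and 75.4 CPM) and the tubulin Tuba1a (661 and 584 CPM against 40.2 and 59.7 CPM).

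Of the survival genes, 5 of 12 were higher and 0 lower, beside 3.52% and 3.95% of all genes. Bcl2a1b, an apoptosis inhibitor of the Bcl2 family, stood at 1776 and 2063 CPM against 196 and 276 CPM in Xcr1/Clec9a DCs and 369 and 173 CPM in Cd209a DCs, and Cflar, an inhibitor of caspase-8, at 177 and 184 CPM against 22.6 and 36.1 CPM and 83.8 and 54.7 CPM. Bcl2a1a, Bcl2a1b and Bcl2a1d are near-identical copies, so their reads may be split among them.

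Genes that restrain T cells were higher in 6 of 12 cases and lower in 3, beside 3.52% and 3.95% of all genes. Cd274, which encodes PD-L1, stood at 259 and 344 CPM against 12.6 and 18.9 CPM in Xcr1/Clec9a DCs and 50.3 and 41.0 CPM in Cd209a DCs. Pdcd1lg2, which encodes PD-L2, stood at 94.1 and 125 CPM against 0 and 4.71 CPM and 16.8 and 4.56 CPM, and Cd200, a ligand of an inhibitory myeloid receptor, at 339.9 and 328 CPM against 15.1 and 12.6 CPM and 0 in both libraries. The lower genes were Havcr2, which encodes TIM-3 (21.4 and 30.3 CPM against 246 and 195 CPM), its ligand Lgals9 (10.7 and 8.42 CPM against 50.3 and 58.1 CPM) and Tgfb1 (27.8 and 37.0 CPM against 70.4 and 145 CPM). Of the costimulatory genes, 2 of 11 were higher and 0 lower, beside the same shares of all genes. These were the CD28 ligand Cd80 (96.2 and 99.3 CPM against 17.6 and 20.4 CPM) and the adhesion molecule Icam1 (113 and 167 CPM against 35.2 and 59.7 CPM). The other CD28 ligand, Cd86, stood at 235 and 411 CPM against 274 and 346 CPM and 352 and 137 CPM, and was not called.

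Class II presentation had 5 of 16 genes lower and 0 higher, beside 3.95% of all genes lower. The transactivator Ciita stood at 8.55 and 33.7 CPM against 146 and 130.4 CPM in Xcr1/Clec9a DCs, H2-DMa at 111 and 152 CPM against 1064 and 870.3 CPM, and the class II beta chain H2-Ab1 at 2377 and 3496 CPM against 12116 and 10426 CPM. Of the class I genes, 1 of 21 was higher, the proteasome activator Psme2 (1024 and 1025 CPM against 327 and 359.7 CPM), and 0 were lower, a share close to the 3.52% of all genes higher. Of the uptake receptors, 1 of 15 was higher, Ly75, which encodes DEC-205 (269 and 232 CPM against 35.2 and 29.8 CPM), and 2 were lower, Clec12a (10.7 and 15.2 CPM against 123 and 154 CPM) and the Fc receptor Fcgr2b (4.28 and 10.1 CPM against 25.2 and 33.0 CPM), beside 3.52% and 3.95% of all genes.

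Among metabolic genes, the glycolytic regulator Pfkfb3 was higher (363 and 340.1 CPM against 42.8 and 37.7 CPM in Xcr1/Clec9a DCs), while lactate dehydrogenase Ldha (139 and 207 CPM against 631 and 638 CPM) and hexokinase Hk2 (21.4 and 18.5 CPM against 55.3 and 89.5 CPM) were lower, in all 1 higher and 2 lower of 17, beside 3.52% and 3.95% of all genes. Of the pentose phosphate genes, 2 of 7 were lower and 0 higher, beside 3.95% of all genes lower. These were transaldolase, Taldo1 (195 and 199 CPM against 765 and 664 CPM), and Pgd itself (8.55 and 10.1 CPM against 25.2 and 34.6 CPM in Xcr1/Clec9a DCs and 50.3 and 41.0 CPM in Cd209a DCs). Pgd was called on few UMIs, 4 and 6 in members, 10 and 22 in Xcr1/Clec9a DCs and 3 and 9 in Cd209a DCs.

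NF-kappaB factors act in DC maturation, with RelA and c-Rel on one arm and RelB with p52, the product of Nfkb2, on the other. Of the NF-kappaB list, 7 of 20 genes were higher in mature DCs and 0 lower, beside 3.52% and 3.95% of all genes. Relb stood at 369.8 and 360.3 CPM against 17.6 and 48.7 CPM in Xcr1/Clec9a DCs and 33.5 and 41.0 CPM in Cd209a DCs. Nfkb2 stood at 207 and 197 CPM against 12.6 and 36.1 CPM and 33.5 and 31.9 CPM, and Map3k14, the kinase NIK of the RelB arm, at 246 and 246 CPM against 40.2 and 39.3 CPM and 83.8 and 63.8 CPM. Birc2, Birc3, Traf1 and Nfkbib were the other genes called, while Rela and Nfkb1 were not. Between genotypes, the log2 ratio of CPM, Pgd fl/fl LysMCre over Pgd fl/fl here and below, was -0.04 for Relb (-0.33 to 0.26) and -0.07 for Nfkb2 (-0.47 to 0.33).

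Promoters from RefSeq (GRCm38.p6, 250 bases before and 50 after each start) were searched on both strands for the kappaB consensus, a 10-base motif. A match was found in 9.91% of the genes higher in mature DCs (21 of 212 with a promoter in the table, exact interval 6.24% to 14.7%) and in 5.86% of those lower (14 of 239, 3.24% to 9.63%). The share was 6.58% of the 5840 tested genes with a promoter, and 5.14% of all 27025 genes with one. Counted per promoter and not per gene, it was 4.51% of 32851. Of the NF-kappaB list, 10 of 18 genes had a match. None of the 5 given markers with a promoter in the table had one, which says only that these letters are not in this window. To show where the matches lie, the 250 bases before the start are printed for 4 genes that were higher in mature DCs and held a match, chosen after the values were seen. They are Nfkb2 (first start), Pdcd1lg2, the T cell costimulatory receptor Tnfrsf9 (second start, nearest log2 ratio to the other groups 2.81) and H2-M2. Each runs 5′ to 3′ along the gene and capitals mark the matches, which can overlap on the 2 strands.
Nfkb2 (GRCm38.p6, chr19:46304487-46304736, plus strand): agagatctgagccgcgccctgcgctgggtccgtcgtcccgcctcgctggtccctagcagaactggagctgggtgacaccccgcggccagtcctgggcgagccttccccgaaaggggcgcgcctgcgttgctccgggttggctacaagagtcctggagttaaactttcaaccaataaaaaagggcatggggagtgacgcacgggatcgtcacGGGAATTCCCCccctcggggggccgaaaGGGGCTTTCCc
Pdcd1lg2 (GRCm38.p6, chr19:29410669-29410918, plus strand): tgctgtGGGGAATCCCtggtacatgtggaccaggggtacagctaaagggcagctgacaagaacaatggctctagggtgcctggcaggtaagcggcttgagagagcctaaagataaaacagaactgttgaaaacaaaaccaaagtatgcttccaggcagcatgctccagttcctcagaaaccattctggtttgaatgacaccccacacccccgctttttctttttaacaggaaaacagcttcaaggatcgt
Tnfrsf9 (GRCm38.p6, chr4:150927749-150927998, plus strand): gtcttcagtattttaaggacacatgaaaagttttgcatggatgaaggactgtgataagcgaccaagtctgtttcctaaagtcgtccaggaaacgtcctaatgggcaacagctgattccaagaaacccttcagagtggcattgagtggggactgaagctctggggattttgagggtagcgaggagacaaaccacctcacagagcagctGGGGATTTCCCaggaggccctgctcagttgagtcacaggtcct
H2-M2 (GRCm38.p6, chr17:37483555-37483804, minus strand): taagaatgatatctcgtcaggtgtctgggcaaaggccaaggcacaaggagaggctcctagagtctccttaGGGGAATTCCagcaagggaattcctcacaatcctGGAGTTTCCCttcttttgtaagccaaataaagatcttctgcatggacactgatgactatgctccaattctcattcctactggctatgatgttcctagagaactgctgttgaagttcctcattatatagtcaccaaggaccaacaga

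The share of mature DCs depended on what it was set against. Of all kept cells it was 1.07% in Pgd fl/fl (38 of 3565, exact binomial interval 0.755% to 1.46%) and 1.75% in Pgd fl/fl LysMCre (49 of 2798, 1.30% to 2.31%). B cells made up 15.1% and 1.29% of the kept cells, T cells 45.5% and 36.9%, and macrophages 16.0% and 18.3%. Of the kept cells that were neither T nor B cells, mature DCs were 2.70% (1.92% to 3.69%) and 2.83% (2.10% to 3.73%). Of mature and Xcr1/Clec9a DCs together they were 58.5% (45.6% to 70.6%) and 55.1% (44.1% to 65.6%), and of the 3 DC groups 53.5% (41.3% to 65.5%) and 43.4% (34.1% to 53.0%). The intervals of the 2 libraries overlap for each of these 4 denominators. With the limits on Cd3 and C1q lifted, the share of kept cells was 1.63% (58 cells, 1.24% to 2.10%) and 3.11% (87 cells, 2.50% to 3.82%), with intervals apart. The paper's methods name a sort of live CD45+ cells, and T and B cells were present at the shares given above. How the sort shaped these shares was not tested, and the spread between mice was not measured.

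**Figure D3:**
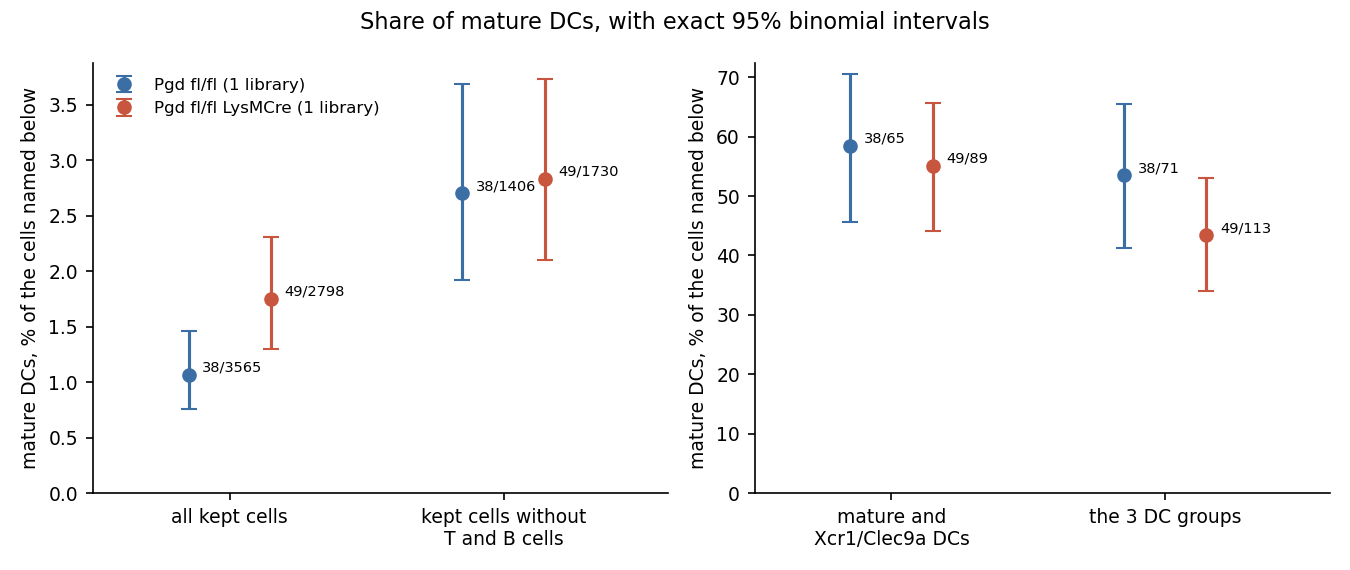
Share of mature DCs in percent, 1 point per library with its exact 95% binomial interval and the counts of cells beside it, for 4 denominators. The points lie apart over all kept cells (1.07% and 1.75%) and close together once T and B cells are left out (2.70% and 2.83%).

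The targeted gene was barely detected in mature DCs of either library. Pgd (chr4:149149991-149166705) had 4 UMIs in 38 members and 6 UMIs in 49 members (8.55 and 10.1 CPM), a log2 ratio of 0.24 with an interval of -1.84 to 2.51, so that a loss of Pgd was not detectable at this depth. In members without Cd3 or Cd79 UMIs and with fewer than 5 C1q UMIs the ratio was -0.50. In macrophages of the same libraries Pgd stood at 106 and 27.0 CPM, a log2 ratio of -1.98, in the direction of the labels. Lyz2, the gene that carries Cre, stood at 3308 and 12.2 CPM in macrophages. In mature DCs it had 8 and 3 UMIs (17.1 and 5.05 CPM), in 21.1% and 6.12% of members. T cells held 63.1 and 6.74 CPM, but 1504 of 1622 Pgd fl/fl T cells had no Lyz1 or Lyz2 UMI. Xcr1/Clec9a DCs had 74 and 3 Lyz2 UMIs and Cd209a DCs 20 and 1. Lyz2 counts of the Cre library were low even in macrophages, so they cannot tell where Cre acted. Whether the level in mature DCs is background was not tested. Of the other pentose phosphate genes, Taldo1 (195 and 199 CPM), Pgls (244 and 202 CPM) and transketolase, Tkt (115 and 104 CPM), had log2 ratios of 0.03, -0.27 and -0.14 with intervals that held 0. Rpe had 6 and 17 UMIs (1.16, -0.25 to 2.79), G6pdx 2 and 3, Rpia 2 and 1, and H6pd 0 in both libraries.

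Most genes of mature DCs stood at like levels in the 2 libraries. Of 4558 genes with at least 20 UMIs, 93.0% lay within 2-fold, 170 (3.73%) were at least 2-fold higher and 147 (3.23%) at least 2-fold lower in Pgd fl/fl LysMCre, and the median log2 ratio was -0.02. Of the genes past 2-fold, 104 and 106 had a counting interval without 0. Over all tested genes the interval lay above 0 for 274 (6.01%) and below 0 for 281 (6.16%). Single members differ by more than counting error, so for genes described singly the part of the UMIs from the 3 highest members is given where it passed 50% in a library.

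Class II genes stood higher in Pgd fl/fl LysMCre members. The median log2 ratio of 15 tested genes was 0.47, 12 were above 0, and 8 had an interval above 0 and 0 below, beside 6.01% and 6.16% of all genes. The alpha chain H2-Aa had 1805 and 3163 UMIs (3858 and 5326 CPM), which gave a ratio of 0.47 (0.38 to 0.55). The beta chain H2-Ab1 had 1112 and 2076 UMIs (0.56, 0.45 to 0.66), H2-Eb1 1833 and 3552 UMIs (0.61, 0.53 to 0.69) and the invariant chain Cd74 3384 and 5939 UMIs (0.47, 0.41 to 0.53). Past 2-fold were 2 genes, both at few UMIs, Ciita (4 and 20 UMIs, 1.98, 0.40 to 3.99) and H2-Ob (5 and 19 UMIs, 1.58, 0.11 to 3.36), and 0 were lower, beside 3.73% higher and 3.23% lower of all genes. The 3 highest members held 75% and 65% of the Ciita UMIs and 60% and 42.1% of the H2-Ob UMIs. In single members the sum of H2-Aa, H2-Ab1, H2-Eb1 and Cd74 ran from 1077 to 86818 CPM with a median of 7377 in Pgd fl/fl, and from 1779 to 94158 CPM with a median of 17338 in Pgd fl/fl LysMCre, so the 2 libraries overlapped over most of their range.

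This difference was smaller in the 34 and 38 members without Cd3 or Cd79 UMIs and with fewer than 5 C1q UMIs. There the median of the list was 0.15, H2-Aa stood at 0.27, H2-Ab1 at 0.15, H2-Eb1 at 0.26 and Cd74 at 0.22. Of the C1q genes, which macrophages express and the rule limited, C1qa had 13 and 41 UMIs in the members (1.31, 0.38 to 2.34, with 61.5% and 58.5% in 3 members), C1qb 15 and 25 UMIs (0.39, -0.59 to 1.42) and C1qc 9 and 11 UMIs (-0.05, -1.46 to 1.39), and 1 and 5 members had 5 to 29 C1q UMIs. The part of these cells in the class II difference was not tested beyond leaving them out. In macrophages the same 4 genes had ratios of -0.47, -0.49, -0.42 and -0.49. The whole class II list summed to 21660 and 29592 CPM in members. It was lower in Pgd fl/fl LysMCre in Xcr1/Clec9a DCs (55074 and 48373 CPM), Cd209a DCs (53929 and 47508 CPM) and B cells (22655 and 20789 CPM). In T cells it was higher there, at 2057 and 5415 CPM. Whether the rises in members and T cells share a source was not tested.

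Class I presentation genes had a median ratio of -0.07 over 21 genes, with 0 past 2-fold, beside 3.73% higher and 3.23% lower of all genes. B2m, the class I light chain, had 2544 and 2765 UMIs (-0.22, -0.30 to -0.15), the heavy chain H2-K1 1290 and 1335 UMIs (-0.29, -0.41 to -0.18) and H2-D1 1483 and 1807 UMIs (-0.06, -0.16 to 0.04). The abundant class I genes thus did not share the direction of the class II genes.

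**Figure D4:**
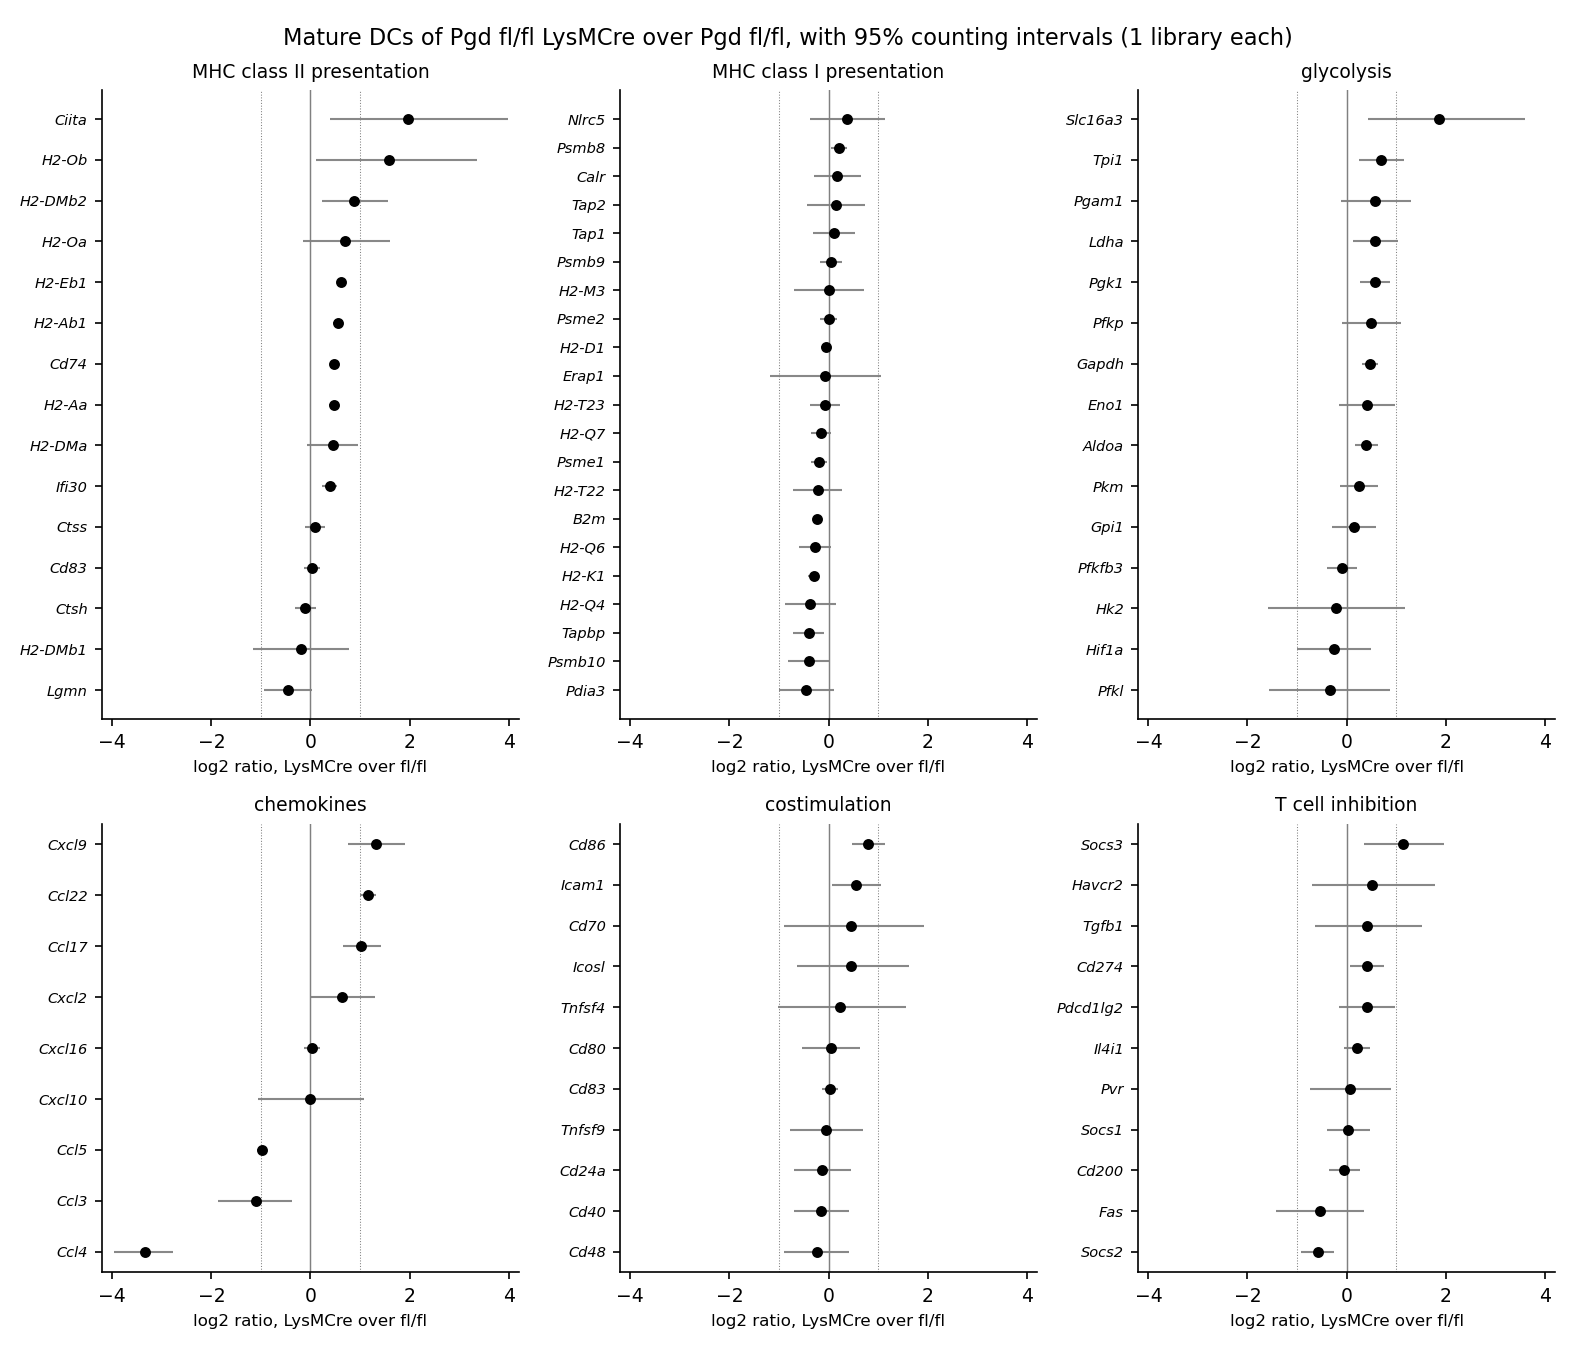
Log2 ratio of summed CPM, Pgd fl/fl LysMCre over Pgd fl/fl, in mature DCs for the genes of 6 lists with at least 20 UMIs. Points are the ratios, lines the 95% counting intervals, and dotted lines 2-fold. H2-Aa, H2-Ab1, H2-Eb1 and Cd74 lie between 0.47 and 0.61, while Cxcl9 (1.32) and Ccl4 (-3.34) lie at the 2 ends of the chemokines.

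Of 9 tested chemokine genes, 3 were at least 2-fold higher in Pgd fl/fl LysMCre (Ccl22, Ccl17 and Cxcl9) and 2 lower (Ccl3 and Ccl4), beside 3.73% and 3.23% of all genes. The median ratio of the list was 0.02. One of the higher genes, Ccl22, was used by the rule to choose the members, so its value is a description. It had 446 and 1262 UMIs, which gave a ratio of 1.16 (1.00 to 1.32). In single members it ran from 0 to 43 UMIs with a median of 7, and from 0 to 274 UMIs with a median of 8, so the medians lay close while a few Pgd fl/fl LysMCre cells were far higher. The 3 highest members held 27.8% and 45.3% of its UMIs, and without them, a setting added after seeing the data, the ratio was 0.68. Ccl17, the other ligand of Ccr4, had 80 and 207 UMIs (1.03, 0.65 to 1.42), of which 3 members held 63.8% and 65.2%.

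Ccl5 went the other way, with 2092 and 1344 UMIs (-0.98, -1.08 to -0.88), just short of 2-fold. In single members it ran from 0 to 237 UMIs with a median of 30, and from 0 to 289 UMIs with a median of 8, so the median member was lower in Pgd fl/fl LysMCre as well. Its ratio was -0.68 in the members without Cd3 or Cd79 UMIs and with fewer than 5 C1q UMIs. Ccl4 had 223 and 28 UMIs (-3.34, -3.96 to -2.77), but 3 members held 92.4% of those in Pgd fl/fl, and without the 3 highest members of each library the ratio was -0.60. Ccl3 (44 and 26 UMIs, -1.10, -1.86 to -0.37) came almost wholly from 3 members in each library (95.5% and 96.2%). Cxcl9, a ligand of Cxcr3, had 35 and 111 UMIs (1.32, 0.76 to 1.91) with 82.9% and 72.1% in 3 members, and its ratio turned to -0.51 in the members without Cd3 or Cd79 UMIs and with fewer than 5 C1q UMIs. Cxcl16, found in 94.7% and 95.9% of members, had a ratio of 0.02 (-0.14 to 0.19).

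None of the 11 tested costimulatory genes passed 2-fold, beside 3.73% higher and 3.23% lower of all genes. Counts in lists this short do not set them apart from all genes. Cd86 had 110 and 244 UMIs (235 and 411 CPM, 0.81, 0.47 to 1.14). In single members it ran from 0 to 13 UMIs with a median of 1.5, and from 0 to 25 UMIs with a median of 3. Icam1 had 53 and 99 UMIs (0.56, 0.06 to 1.07), while the intervals of Cd80 (0.05), Cd40 (-0.14) and Cd83 (0.03) held 0. Of the 11 genes that restrain T cells, 1 passed 2-fold, beside the same shares of all genes. It was Socs3 with 19 and 53 UMIs (1.14, 0.36 to 1.97), of which 3 Pgd fl/fl members held 73.7% and 3 Pgd fl/fl LysMCre members 41.5%. The Socs3 ratio was 2.35 without the 5% of members with the most UMIs. It was 0.56 without the 3 members of each library richest in class II, a setting added after seeing the data. Cd274 had 121 and 204 UMIs (0.41, 0.08 to 0.75) and Socs2 166 and 141 UMIs (-0.58, -0.91 to -0.25).

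None of the 6 tested cytokine genes passed 2-fold, beside 3.73% higher and 3.23% lower of all genes. Il12b had 387 and 428 UMIs, which gave a ratio of -0.20 (-0.40 to 0.00), and was found in 25 of 38 and 26 of 49 members, against 0.185% and 0.0969% of T cells. In single members it ran from 0 to 99 UMIs with a median of 2.5, and from 0 to 170 UMIs with a median of 1, and the 3 highest members held 48.6% and 69.6% of the UMIs. Its ratio was 0.11 in the members without Cd3 or Cd79 UMIs and with fewer than 5 C1q UMIs and -0.98 without its 3 highest members. Il1b had 430 and 699 UMIs (0.36, 0.18 to 0.53), with 52.1% and 45.2% in 3 members.

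Glycolysis genes had a median ratio of 0.41 over 15 tested genes, of which 11 were above 0. The counting interval lay above 0 for 6 and below 0 for 0, beside 6.01% and 6.16% of all genes. Gapdh had 506 and 890 UMIs (0.47, 0.31 to 0.63), Pgk1 140 and 263 (0.57, 0.26 to 0.87), Tpi1 61 and 126 (0.70, 0.25 to 1.17), Ldha 65 and 123 (0.58, 0.13 to 1.03) and Aldoa 238 and 399 (0.40, 0.17 to 0.64). Only the lactate transporter Slc16a3 passed 2-fold, with 5 and 23 UMIs (1.86, 0.43 to 3.61), of which 3 members held 80% and 47.8%. Of all genes, 3.73% were at least 2-fold higher and 3.23% lower. In the members without Cd3 or Cd79 UMIs and with fewer than 5 C1q UMIs the median of the list was 0.41. The rise was not particular to mature DCs. The list summed to 3277 and 4284 CPM in members, 3796 and 4568 in Xcr1/Clec9a DCs and 2815 and 3449 in Cd209a DCs. It summed to 4722 and 5896 CPM in macrophages, 4038 and 5152 in T cells and 1567 and 3480 in B cells.

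Antioxidant genes had a median of 0.21 over 14 genes, with 4 intervals above 0 and 3 below, beside 6.01% and 6.16% of all genes. Glutathione reductase, Gsr (4 and 20 UMIs, 1.98, 0.40 to 3.99), and heme oxygenase, Hmox1 (6 and 25 UMIs, 1.71, 0.39 to 3.29), passed 2-fold at few UMIs, of which 3 members held 75% and 30% (Gsr) and 66.7% and 56% (Hmox1). The shares of all genes past 2-fold were 3.73% higher and 3.23% lower. Superoxide dismutase Sod1 (91 and 81 UMIs, -0.51, -0.96 to -0.06) and the glutathione synthesis enzyme Gclc (63 and 49 UMIs, -0.71, -1.28 to -0.15) stood lower.

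The DC maturation list had a median ratio of -0.12 over 24 genes, with 1 past 2-fold higher (Ccl17) and 2 lower, beside 3.73% and 3.23% of all genes. Fabp5 had 1773 and 3808 UMIs (0.76, 0.68 to 0.84), and in single members ran from 0 to 147 UMIs with a median of 35, and from 2 to 375 UMIs with a median of 56. Lad1, a basement membrane filament protein, was lower with 32 and 17 UMIs (-1.26, -2.20 to -0.37), as was the transporter Slco5a1 with 19 and 12 UMIs (-1.01, -2.18 to 0.11). Lists of NF-kappaB (median -0.06, 20 genes), survival (median 0.09, 11 genes) and migration genes (median 0.00, 17 genes) had 0 genes past 2-fold, beside the same shares of all genes. In the migration list the protease Adam8 stood highest (72 and 176 UMIs, 0.95, 0.54 to 1.36), with 0.28 after each member was thinned to 5000 UMIs.

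Transcripts known from Langerhans cells, the DCs of the epidermis, formed a list of 6 genes. Of these, 2 were past 2-fold higher and 1 lower, beside 3.73% and 3.23% of all genes. The tight junction gene Cldn1 had 40 and 115 UMIs (1.18, 0.65 to 1.74) and the decoy receptor Il1r2 34 and 89 UMIs (1.04, 0.46 to 1.66), and 3 members held 62.5% and 31.3% of the Cldn1 UMIs and 64.7% and 47.2% of the Il1r2 UMIs. Mfge8 had 397 and 990 UMIs (0.97, 0.80 to 1.15), running in single members from 0 to 75 UMIs with a median of 1, and from 0 to 149 UMIs with a median of 6. Cd207, which encodes langerin, had 45 and 18 UMIs (-1.67, -2.54 to -0.85), all of them in 3 members in Pgd fl/fl and 66.7% in 3 members in Pgd fl/fl LysMCre. Cd207 was found in 7.89% and 14.3% of members and Mfge8 in 57.9% and 71.4%.

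Interferon-stimulated genes had a median ratio of 0.22 over 15 genes, with 3 past 2-fold higher, Zbp1 (6 and 29 UMIs), Cxcl9 and Irf7 (12 and 32 UMIs, 1.07, 0.07 to 2.16), and 0 lower, beside 3.73% and 3.23% of all genes. The ratio of Zbp1 was 1.93 and stood at 0.65 with members thinned to 5000 UMIs, and that of Cxcl9 changed sign as given above. In 3 members lay 66.7% and 34.5% of the Zbp1 UMIs and 58.3% and 75% of the Irf7 UMIs. The interval lay above 0 for 3 genes of the list and below 0 for 3, beside 6.01% and 6.16% of all genes. Epsti1 stood lower with 481 and 344 UMIs (-0.83, -1.03 to -0.63). The stress and immediate early list, genes that tissue dissociation is known to raise, had a median of -0.11 over 15 genes and 0 past 2-fold, beside 3.73% higher and 3.23% lower of all genes. Its summed level was 11763 and 10224 CPM, and Zfp36, which destabilises cytokine mRNA, stood lowest with 511 and 346 UMIs (-0.91, -1.11 to -0.71).

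Of 218 genes that met the conditions for being named on the higher side, the 12 with the highest ratio were Nsf, Hfe, Zbp1, Jarid2, Cotl1, Mfsd14b, Txnip, Nfu1, Trib1, Mtln, Il2ra and Lgals3bp. As extremes of many genes, most had few UMIs. Cotl1, an actin-binding protein, had 23 and 96 UMIs (49.2 and 162 CPM, 1.72, 1.05 to 2.44) in 42.1% and 63.3% of members, and its ratio was -0.06 in macrophages and 0.17 in T cells. Il2ra, the alpha chain of the IL-2 receptor, had 16 and 56 UMIs (1.46, 0.64 to 2.36), against -0.76 in macrophages and 0.53 in T cells. The pseudokinase Trib1 had 15 and 54 UMIs (1.504, 0.66 to 2.44), against -0.10 and 0.80, and 3 members held 62.5% and 37.5% of the Il2ra UMIs and 66.7% and 31.5% of the Trib1 UMIs. Txnip, an inhibitor of thioredoxin, had 9 and 33 UMIs (1.53, 0.44 to 2.78), against 0.89 and -0.79. The other 8 had 4 to 11 UMIs in Pgd fl/fl and 24 to 40 in Pgd fl/fl LysMCre. With each member thinned to 5000 UMIs, 4 of the 12 stood below 2-fold, Nsf at 0.65 (from 2.36), Zbp1 at 0.65, Jarid2 at 0.82 and Txnip at 0.98. The 3 highest members held 75% and 34.6% of the Nsf UMIs.

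Of 221 genes on the lower side, the 12 lowest were Clasp2, Utp11, Esf1, Cyb5a, Scin, Zranb1, Synpo2, Bbx, Dnajc1, Gpbp1l1, Mcrs1 and Zfx. Scin, the actin-severing protein adseverin, had 137 and 56 UMIs (293 and 94.3 CPM, -1.63, -2.11 to -1.18) in 44.7% and 28.6% of members, and 3 members held 45.3% and 60.7% of them. Cyb5a, which encodes cytochrome b5, had 47 and 19 UMIs (-1.65, -2.50 to -0.85), against 0.30 in macrophages and 0.27 in T cells. Dnajc1 had 70 and 33 UMIs (-1.43, -2.07 to -0.81), against -0.24 and 0.17, and the microtubule-binding protein Clasp2 37 and 12 UMIs (-1.97, -3.04 to -0.997), against -0.12 and 0.22. The other 8 had 21 to 38 UMIs in Pgd fl/fl and 10 to 17 in Pgd fl/fl LysMCre. With each member thinned to 5000 UMIs, 3 of the 12 stood nearer to 0 than 2-fold, Utp11 at -0.93, Esf1 at -0.35 and Gpbp1l1 at -0.35. Bbx stood at -0.73 in the members without Cd3 or Cd79 UMIs and with fewer than 5 C1q UMIs. The 3 highest members held 23.1% and 60% of the Esf1 UMIs.

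Members differed widely among themselves in both libraries. After each member was thinned to 5000 UMIs, which left 37 and 47 members, the variance over the mean (Fano factor) had a median of 1.24 and 1.32 over 1588 genes with a mean of at least 0.3 UMIs. It was 39.3 and 50.5 for Ccl5, 40.4 and 32.2 for H2-Ab1, 44.2 and 31.9 for Cd74, 15.7 and 27.6 for Fabp5, 14.3 and 16.0 for Mfge8 and 10.6 and 23.3 for Il12b. The heat-shock genes Hspa1a and Hspa1b, near-identical copies, Jun and the calcium-binding protein S100a4 were also among the 25 genes with the highest Fano factor, by the lower value of the 2 libraries.

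Some of these genes varied together in both libraries and others did not. Correlations over cells were taken on log2(thinned UMIs + 1) for 136 pairs of measures chosen after the values were seen. The sum of H2-Aa, H2-Ab1, H2-Eb1 and Cd74 had a Pearson correlation of -0.66 and -0.46 with Ccl5 (37 and 47 cells) and of 0.59 and 0.48 with Mfge8. Mfge8 had -0.46 and -0.42 with Ccl5. S100a4 had 0.41 and 0.38 with the class II sum, 0.45 and 0.41 with Mfge8 and -0.46 and -0.35 with Il12b, and the filament vimentin, Vim, had -0.41 and -0.46 with Il12b. In each library, members rich in class II thus tended to be rich in Mfge8 and S100a4 and poor in Ccl5. Fabp5 had 0.41 and -0.05 with the class II sum, 0.27 and -0.13 with Mfge8 and -0.42 and -0.13 with Ccl5, and Il12b had -0.00273 and -0.0406 with the class II sum and 0.07 and 0.17 with Ccl5. Fscn1 had -0.20 and -0.02 with the class II sum and Ccr7 had 0.04 and 0.10. Hspa1a and Jun, both stress genes, had 0.52 and 0.67. Cells of a library share its preparation, and thinned counts share a fixed total, so these correlations are a description.

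**Figure D5:**
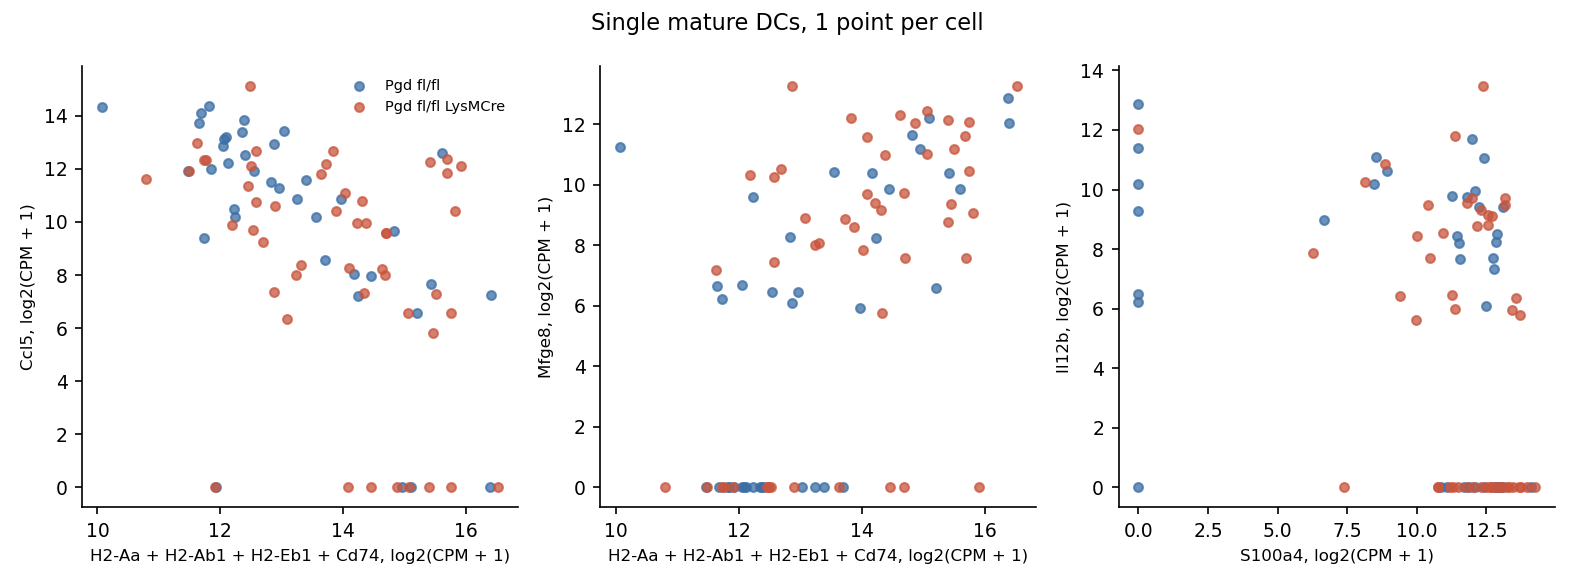
Single mature DCs, 1 point per cell, as log2(CPM + 1) of unthinned UMIs and colored by library, with the class II sum against Ccl5 (left) and Mfge8 (middle), and S100a4 against Il12b (right). Both libraries cover like ranges, Ccl5 tends to be lower and Mfge8 higher in cells with more class II (correlations on thinned UMIs -0.66 and -0.46, and 0.59 and 0.48), and points at 0 are cells without a UMI of that gene.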

How the data were processed

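Leukocytes of both genotypes were tagged with multiplexing oligonucleotides, pooled and run on the 10x Chromium. For each library the authors deposited filtered Cell Ranger output, raw UMI counts of 32285 genes and 12 oligos per barcode, for 3728 (Pgd fl/fl) and 3014 (Pgd fl/fl LysMCre) barcodes. The submitters' processing notes name Cell Ranger 6.1.2, Seurat and mm10. Limits of 500 to 7500 genes and 15% mitochondrial UMIs, as in the study's methods, were applied here and left 6363 cells.

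Members and gene lists were chosen with earlier results of these data known. UMIs were summed over the members of a library and divided by all their UMIs (CPM). Genotype ratios have exact conditional binomial intervals and shares Clopper-Pearson intervals. A group at 0 was set to 3 UMIs in a fold. Genes needed 20 UMIs over the groups compared, and 2-fold stood in for a test. Python 3.11.15, numpy 2.4.6, pandas 2.3.3 and scipy 1.17.1 were used, and the steps were tested on simulated data. UMIs count molecules, but intervals cover neither mice nor cells.

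T cells had at least 3 Cd3 UMIs, fewer than 3 C1q UMIs and no Fscn1 or Cd79a. Macrophages had at least 30 C1q UMIs and at most 1 UMI of Cd3 and of Fscn1, and B cells at least 3 UMIs of Cd79a and Cd79b, at most 1 of Cd3 and fewer than 3 of C1q. Named genes were the given markers and the rule's genes, the pentose phosphate genes and Lyz2, and list members by level or ratio. Between genotypes they were the 12 highest and 12 lowest ratios with at least 30 UMIs, an interval without 0, UMIs in at least 10% of the members of the higher library and at most 50% of that library's UMIs in 3 cells. Against both DC groups they were the 15 highest and 10 lowest genes by the ratio nearest to 0. Other names were chosen after their values were seen. Alternatives changed the member rule, depth, scaling and UMI minimum.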

Additional observations from a re-analysis of the deposited data

Results flagged for a closer look

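Of 52 genes compared between cell types, 13 had a genotype ratio in mature DCs and one in macrophages that lay on opposite sides of 0, both with counting intervals without 0. The difference was not tested, since each genotype is 1 library. As log2 of Pgd fl/fl LysMCre over Pgd fl/fl, mature DCs first, these were the class II genes H2-Aa (0.47 against -0.47), H2-Ab1 (0.56 against -0.49), H2-Eb1 (0.61 against -0.42) and Cd74 (0.47 against -0.49). The chemokines Ccl5 (-0.98 against 0.52), Ccl3 (-1.10 against 0.78), Ccl4 (-3.34 against 0.33) and Cxcl9 (1.32 against -0.66) followed, of which Ccl3, Ccl4 and Cxcl9 came mostly from few cells in at least 1 library. In members without Cd3 or Cd79 UMIs and with fewer than 5 C1q UMIs the Cxcl9 ratio was -0.51, the sign of macrophages. The others were Nfu1 (1.52 against -0.26), Il2ra (1.46 against -0.76), Lgals3bp (1.43 against -0.19), Cyb5a (-1.65 against 0.30) and Gpbp1l1 (-1.41 against 0.39). With members thinned to 5000 UMIs, Gpbp1l1 stood at -0.35 and Cyb5a at -3.08. Nfu1, Il2ra, Lgals3bp, Cyb5a and Gpbp1l1 had been named for extreme ratios with an interval without 0 in mature DCs. For them that part of the condition was thus met by choice. The 52 genes were a chosen set, and the share of opposite genes among all tested genes was not taken. The count of 13 is therefore a description only.

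The multiplexing oligos are outside the main measurement. Oligo UMIs of the other library were counted in the members, 4750 in Pgd fl/fl (3.14% of the UMIs of all 12 oligos) and 4522 in Pgd fl/fl LysMCre (3.70%). Over all barcodes this share was 6.064% and 3.901%, and each member had at least 77.9% (Pgd fl/fl) or 86.1% (Pgd fl/fl LysMCre) of its oligo UMIs from its own tag.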

How the results depend on the processing

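No paired analysis was possible because each genotype is 1 library, and for the same reason no replicate could be left out. Of 789 values under alternatives, 186 of 200 on the main results and 522 of 589 on single genes moved little. A single-gene value was counted so when it stayed inside the gene's main counting interval, which is wide at few UMIs. Gpbp1l1, for example, was counted so at -0.35 with thinned members (interval -2.66 to -0.26). The count of genes past 2-fold between genotypes depended on depth and on the UMI minimum: 101 higher and 82 lower with members thinned to 5000 UMIs, 408 and 393 with a minimum of 10 UMIs, and 34 and 27 with 50. The class II median, 0.47 over all members, was 0.15 in members without Cd3 or Cd79 UMIs and with fewer than 5 C1q UMIs. The chemokine median, 0.02 over all members, was 1.12 with thinned members. Of settings added after seeing the data, leaving out the 3 highest members of each gene gave 0.74 for class II and 0.66 for chemokines. Against the other DC groups, thinned cells gave 158 higher and 154 lower genes, of which 136 and 112 were shared with the full counts, and Xcr1/Clec9a DCs alone (added after seeing the data) gave 789 and 963. Direction turned for Cxcl9 (-0.51) and Il12b (0.11) in those members without Cd3 or Cd79 UMIs and with fewer than 5 C1q UMIs, for Txnrd1 (-0.13) with thinned members, and for Ccr7 (-0.02) without the 3 members of each library richest in class II, also added after seeing the data. Apart from these constructions the causes were not tested. With 87 cells, genes under about 20 UMIs could not be compared.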

Other observations

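Cell cycle genes were low in the mature DCs. The list summed to 118 and 241 CPM, and 9 of 38 and 15 of 49 members had no UMI of it. Top2a (4 and 18 UMIs) lay wholly in at most 3 members of each library, and 3 members held 90.6% of the Stmn1 UMIs of Pgd fl/fl LysMCre (5 and 32 UMIs).

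Monocyte and neutrophil markers were low apart from single genes. The monocyte list summed to 4284 and 5961 CPM, nearly all of it S100a4 (4277 and 5946 CPM), with 6 and 7 of 10 genes at 0. The neutrophil list summed to 77.0 and 160.0 CPM, most of it Il1r2 (72.7 and 149.9 CPM).

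Of the receptors for antigen uptake, only 3 of 17 reached 20 UMIs in the members, Ly75 (126 and 138 UMIs), Cd207 (45 and 18) and Cd302 (21 and 34).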
